A study of Mus musculus with 6 samples.

Results

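The 31 genes described here sense DNA damage or repair it, and 30 of them were measured by at least 1 array probe set that carries a single gene symbol. They were chosen as a list, with earlier results of these data known. It holds checkpoint kinases, break sensors, and the homologous recombination, Fanconi anaemia, mismatch repair and end joining pathways. Xrcc2 had no such probe set in the annotation used and was not analysed here. Among 18193 genes on the array, each member is shown by its brightest probe set, judged by the mean of the 6 arrays. Mouse embryonic stem (ES) cells, pluripotent cells grown from the early embryo, were studied in 3 lines with a single chromosome set (haploid) and in 3 diploid samples. The haploid lines were HAP1 (passage 24) and HAP2 (passage 21), both of F1 CBAxB6 background, and HTG1 (passage 11), whose strain is given as mixed transgenic; the labels used here name no transgene. The diploid samples were male controls, numbered 1 to 3, of 129Sv, 129Sv and 129 background. All 6 grew in 2i, a medium in which MEK and GSK3 are inhibited, and RNA was taken on day 2 after passaging. Strain and ploidy thus differed together and cannot be told apart. Passage is given for the haploid lines only, and the level of X-linked genes also differed with the group, as given below. The diploid titles name no line, so whether they are separate lines is unknown, and p-values then measure only the spread between these arrays. Haploid ES cells tend to become diploid in culture; no share of haploid cells at harvest is used here.

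The kinase ATM answers double-strand breaks, brought to the ends by the MRE11, RAD50 and NBN complex, while ATR answers single-stranded DNA at stalled forks; they pass the signal to CHK2 and CHK1. Breaks are rejoined directly by end joining, or copied from an intact duplicate by homologous recombination, for which a haploid cell has only the sister chromatid made in S phase. Fanconi proteins unhook crosslinks between strands, and mismatch repair corrects copying errors. Mouse ES cells divide fast, spend most of the cycle in S phase and are known for heavy use of homologous recombination.

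Promoter letters are shown because members with lower levels in haploid cells include genes of different pathways, and a reader may want to see what lies before their starts. Of the 31 listed genes, 23 had an entry in the RefSeq promoter table (build GRCm38.p6), and 4 of the 7 members that passed as lower were among them. The 120 bases before the start are given 5′ to 3′ on the gene's strand for those 4 (Brca1, Rad54l, Lig4, Chek1) and for Fancm and Chek2, whose measured levels leaned the other way without passing. Capitals mark exact matches to an E2F motif (spelled TTCGCGC, with the variants TTGGCGC and also TTCCCGC) or the box of the factor NF-Y, spelled CCAAT, on either strand. They lie at chr11:101551956-101552075 (minus strand) for Brca1, chr4:116123691-116123810 (minus) for Rad54l, chr8:9977681-9977800 (minus) for Lig4, chr9:36726659-36726778 (minus) for Chek1, chr12:65075483-65075602 (plus) for Fancm and chr5:110839863-110839982 (plus) for Chek2.
Brca1: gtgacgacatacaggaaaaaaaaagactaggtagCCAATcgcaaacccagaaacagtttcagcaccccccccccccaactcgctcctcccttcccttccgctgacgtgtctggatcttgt
Rad54l: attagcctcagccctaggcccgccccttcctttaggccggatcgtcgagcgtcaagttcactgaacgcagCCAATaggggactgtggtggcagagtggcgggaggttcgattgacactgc
Lig4: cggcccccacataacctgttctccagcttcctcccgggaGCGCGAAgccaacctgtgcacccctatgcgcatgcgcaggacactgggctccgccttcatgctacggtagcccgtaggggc
Chek1: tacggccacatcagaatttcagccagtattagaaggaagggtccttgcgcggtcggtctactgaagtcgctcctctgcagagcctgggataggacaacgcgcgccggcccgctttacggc
Fancm: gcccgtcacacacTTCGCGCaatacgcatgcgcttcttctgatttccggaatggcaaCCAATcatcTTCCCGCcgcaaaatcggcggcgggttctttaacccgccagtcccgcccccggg
Chek2: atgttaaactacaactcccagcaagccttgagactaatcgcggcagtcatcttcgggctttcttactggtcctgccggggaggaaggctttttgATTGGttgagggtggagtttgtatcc

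Brca1 held a CCAAT box 86 bases before its start and an E2F match 21 bases after it, and Rad54l a CCAAT box 50 bases before. Lig4 held an E2F match 81 bases before its start, and Chek1 one 43 bases after. Fancm had E2F matches 107 and 54 bases before its start with a CCAAT box between them. Over windows of 250 bases before to 50 bases after the start, 14 of the 23 members with an entry (60.9%) held an E2F match, against 9.2% of all genes in the table and 11.8% of protein-coding genes. A CCAAT box stood in 14 of 23 (60.9%), against 41.1% of all genes and 42.3% of protein-coding genes, and the CHR motif TTTGAA in 1 of 23 (4.35%) against 20.2% and 18.5%. E2F matches were in 3 of the 4 members that fell and in 11 of the other 19 (57.9%). A match is a description of these letters and shows no binding.

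Values are on the log2 scale as deposited, where a difference of 1 is a doubling. RMA brings arrays to a common distribution, and array medians ran from 6.31 to 6.34, so levels are relative to the bulk of genes and a change in total RNA per cell cannot be seen. The ES cell markers Pou5f1, Nanog, Sox2, Zfp42 and Esrrb had group means between 12.1 and 13.9 in both groups. Of these 5, 2 passed as higher in the haploid arrays: Pou5f1 by 0.40 (limma adjusted p = 0.0246) and Nanog by 0.47 (0.0227). The other 3 did not pass. The summed linear level of 7 fibroblast markers, which feeder cells would carry, was 796 to 1354 in the diploid and 406 to 528 in the haploid arrays, and 1 of the 7, Col1a2, passed as lower. Of the 7, 2 were dim in these arrays, and no value on this scale is 0. The difference between 3′ and 5′ beta-actin control probe sets, a sign of RNA quality, was 0.338 to 0.458 in the diploid and 0.178 to 0.24 in the haploid arrays (log2). The part of these in the results was not tested. In such bulk RNA, fewer cells of a type and less RNA per cell cannot be told apart. Relative to autosomal genes, the median haploid minus diploid difference was -0.35 for chromosome 8, -0.29 for chromosome 11 and 0.75 for X (log2). No member lies on X. Their chromosome is given beside the values it touches.

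**Figure D1:**
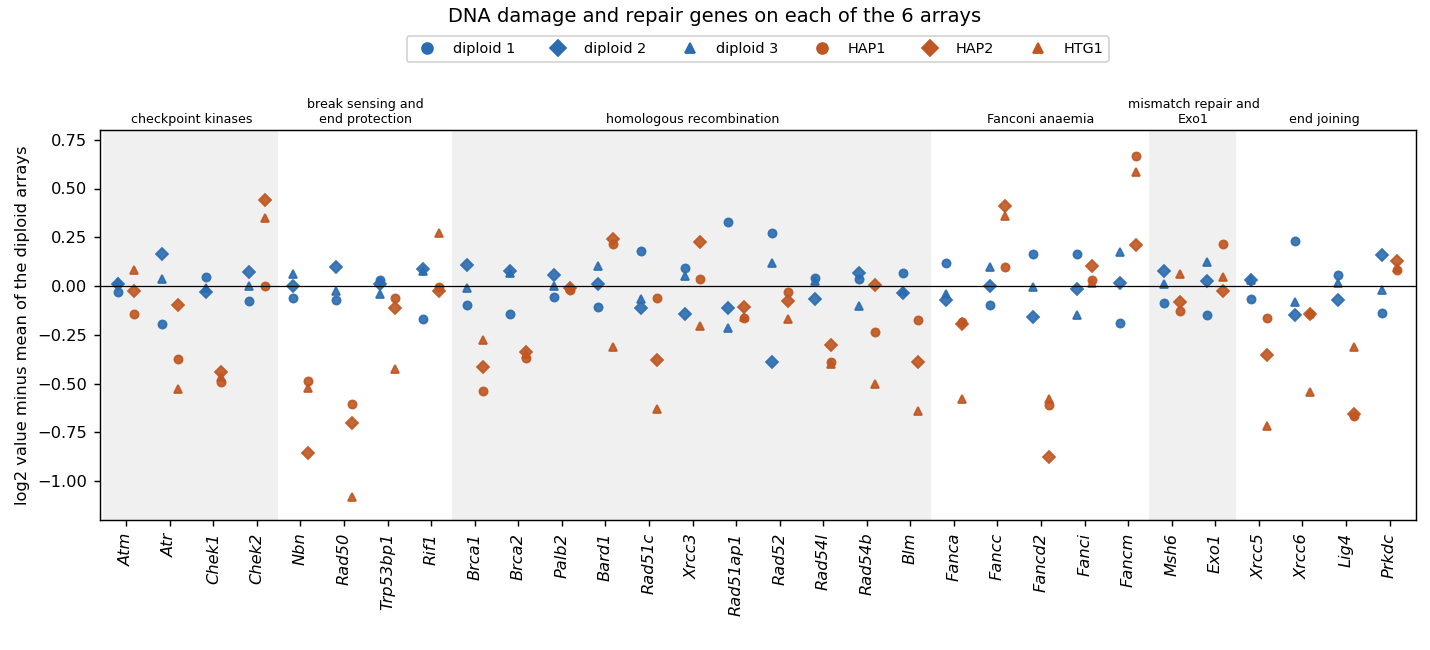
Each point is 1 array, as its log2 value minus the mean of the 3 diploid arrays, for the 30 measured genes grouped by pathway (blue diploid, orange haploid, shapes for the arrays or lines). The haploid points lie below all diploid points for 12 genes, among them Chek1, Nbn, Rad50 and Fancd2, and above them for Fancm.

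Of the 30 genes, 7 from several pathways were called lower in the haploid lines and none was called higher. Among the checkpoint kinases and the break sensing and end protection genes, Chek1, Nbn and Rad50 passed. Atm, Atr, Chek2, Trp53bp1 and Rif1 did not. Nbn and Rad50, partners in the break-sensing complex, the replication checkpoint kinase Chek1, the recombination genes Brca1 and Rad54l, the crosslink repair hub Fancd2 and the end joining ligase Lig4 fell, by 1.29-fold (Rad54l) to 1.74-fold (Rad50). Against these, Msh6, Rif1, Palb2, Exo1 and Prkdc differed by no more than 0.10 (log2) in either direction and did not pass. Of 30 members, 7 (23.3%) passed in either direction, against 14.9% of all genes and 21.9% of the 9096 genes above the median level, which 29 members reached. All 7 were lower, against 6.96% of all genes and 9.21% of those above the median level. As higher, 0 passed, against 7.92% of all genes and 12.7% of those above the median level. At an unadjusted limma p of 0.05, 11 members were lower and 2 higher. Of the 18193 genes 2873 were lower and 2799 higher at that p, and 1612 and 2106 of the 9096 above the median level. Genes were tested with limma, and passed at a p of 0.05 after Benjamini-Hochberg adjustment over the 18193 genes. The 3 haploid values lay below the 3 diploid values for 12 members (40.0%), against 20.2% of all genes and 21.4% of those above the median level. They lay above them for 1, against 17.7% and 26.2%. The difference was below 0 for 21 members, against 54.2% of all genes and 45.4% of those above the median level. The median difference over the 30 members was -0.22, against -0.03 over all genes and 0.04 over those above the median level. Because the list was chosen with earlier results of these data known, these shares are a description and not a test. The count differed with the array left out: it was 0 without diploid array 3, 2 without diploid array 2 and 4 without HAP2, and 5 or 6 without any other array, while all genes called went from 2707 to 970, 1196 and 1429 without those 3.

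Among the 4 checkpoint kinases, only Chek1, which holds back mitosis while forks are stalled, passed. Its values were 11.33, 11.25 and 11.27 in the diploid arrays and 10.79, 10.84 and 10.82 in HAP1, HAP2 and HTG1. The groups were separated by 0.41, far more than the spread within either (SD 0.0399 and 0.0245). The difference was -0.47 ± 0.08 (SE, n = 3 per group), or 1.38-fold lower (limma adjusted p = 0.0141). It was -0.52 with the shift of chromosome 9 subtracted, -0.25 averaged over its 5 probe sets (limma adjusted p = 0.135), and its limma adjusted p was 0.0589 without diploid array 3. Chek2, the kinase downstream of ATM, stood at 9.68, 9.83 and 9.76 in the diploid arrays and at 9.76, 10.20 and 10.11 in the haploid arrays, a difference of 0.26 ± 0.13 (limma adjusted p = 0.225). HAP1 lay among the diploid values and the other haploid lines above them.

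Atm and Atr, the kinases at the head of the pathways, did not pass. Atr read 9.87, 10.22 and 10.10 against 9.69, 9.96 and 9.53, with overlapping groups and a difference of -0.34 ± 0.15 (limma adjusted p = 0.174). By its brighter probe set Atm differed by -0.03 ± 0.10 (limma adjusted p = 0.874). The 2 probe sets of Atm gave different pictures. The dimmer one read 7.69, 7.66 and 7.78 in the diploid arrays, 7.46 in HAP1, and 9.32 and 9.45 in HAP2 and HTG1. Those 2 lines stood well above the other 4 arrays on that probe set, and its difference of 1.03 ± 0.49 did not pass over all probe sets (limma adjusted p = 0.204).

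The break-sensing pair fell together and included the largest change of the list. Rad50, the clamp that tethers broken ends, read 10.25, 10.41 and 10.29 in the diploid arrays and 9.71, 9.61 and 9.24 in HAP1, HAP2 and HTG1. HTG1 was the lowest of the 6. The difference was -0.80 ± 0.14 (SE, n = 3 per group), 1.74-fold lower (limma adjusted p = 0.0137). Rad50 lies on chromosome 11; with that chromosome's shift subtracted the difference was -0.50 and just missed the threshold (limma adjusted p = 0.0509). Averaged over its 2 probe sets, the second of which is dim at 3.90, it was -0.45 and passed.

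Nbn, which recruits ATM to the complex, lies on chromosome 4, which had no such shift. It read 9.53, 9.59 and 9.65 against 9.10, 8.73 and 9.07, with HAP2 lowest. The groups lay 0.43 apart and the difference was -0.62 ± 0.12, 1.54-fold lower (limma adjusted p = 0.0192). It was -0.68 with chromosome shifts subtracted. Neither Nbn nor Rad50 passed without diploid array 2 or without diploid array 3 (limma adjusted p = 0.0565 to 0.0807). The third partner of the complex, Mre11a, which is outside the list of 31, had haploid values all below the diploid ones but did not pass, at -0.45 ± 0.19 (limma adjusted p = 0.151), and is named here after its values were seen. The end-protection factors, which steer breaks towards end joining, did not pass: Trp53bp1 differed by -0.20 ± 0.12 and its partner Rif1 by 0.08 ± 0.13 (limma adjusted p = 0.295 and 0.7).

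Homologous recombination was the largest pathway, with 11 measured members, of which 2 passed as lower and none as higher; 9 of the 11 differences were below 0 and the median was -0.25. Brca1, which promotes the resection of broken ends, read 11.48, 11.68 and 11.57 in the diploid arrays and 11.04, 11.16 and 11.30 in the haploid arrays. The groups did not overlap, and the difference was -0.41 ± 0.11, 1.33-fold lower, close to the threshold (limma adjusted p = 0.0472). On chromosome 11, Brca1 differed by -0.12 once that chromosome's shift was subtracted (limma adjusted p = 0.484). It passed without HTG1 but not without any one of the other 5 arrays (limma adjusted p = 0.0568 to 0.142). All 4 of its probe sets were lower, from -0.67 to -0.14.

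Rad54l, a DNA motor protein of homologous recombination, read 10.53, 10.42 and 10.51 against 10.09, 10.18 and 10.08. Its difference of -0.36 ± 0.09 passed on all arrays (limma adjusted p = 0.0359) but in no setting with 1 array left out (0.0723 to 0.118). Averaged over its 4 probe sets it was -0.10. Brca2, a central mediator of recombination, read 10.81, 11.03 and 11.02 against 10.58, 10.62 and 10.61. The haploid values were close together (SD 0.0161) and below every diploid value, and the difference of -0.35 ± 0.10 just missed the threshold (limma adjusted p = 0.0544). It passed in all 7 of the alternatives on 6 arrays that gave it a value, and in 1 of the 6 with an array left out.

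The helicase Blm, which dissolves recombination intermediates, was lower by similar size without passing. Its values were 10.75, 10.65 and 10.66 against 10.51, 10.30 and 10.04, a difference of -0.40 ± 0.13 (limma adjusted p = 0.086). Rad51c, a recombination gene on chromosome 11, differed by -0.36 ± 0.16 and by -0.06 with the shift subtracted, and Rad54b by -0.25 ± 0.14; neither passed. Palb2, the bridge between BRCA1 and BRCA2, differed by -0.01 ± 0.08, with a 95% interval from -0.21 to 0.19. Bard1, the partner of BRCA1, differed by 0.05 ± 0.17 and Xrcc3, another recombination gene, by 0.02 ± 0.14, and neither passed.

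Rad51ap1, a recombination cofactor, and Rad52, a strand-annealing protein, each varied inside the diploid group, but not in the same way. Rad51ap1 read 10.31 in diploid array 1 and 9.86 and 9.76 in arrays 2 and 3, with haploid values of 9.82 to 9.87. Rad52 read 7.67, 7.01 and 7.52, with array 2 the low one. Both lie on chromosome 6, whose genes as a whole stood at 0.29 in diploid array 1 and at -0.11 and -0.10 in the other diploid arrays (log2, relative to autosomal genes). Rad51ap1 had that pattern over the diploid arrays and Rad52 did not, since its array 3 stood near array 1. The haploid minus diploid differences of Rad51ap1 and Rad52 were -0.14 ± 0.15 and -0.09 ± 0.17. Both turned to a small positive value without diploid array 1, at 0.02 and 0.04.

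**Figure D2:**
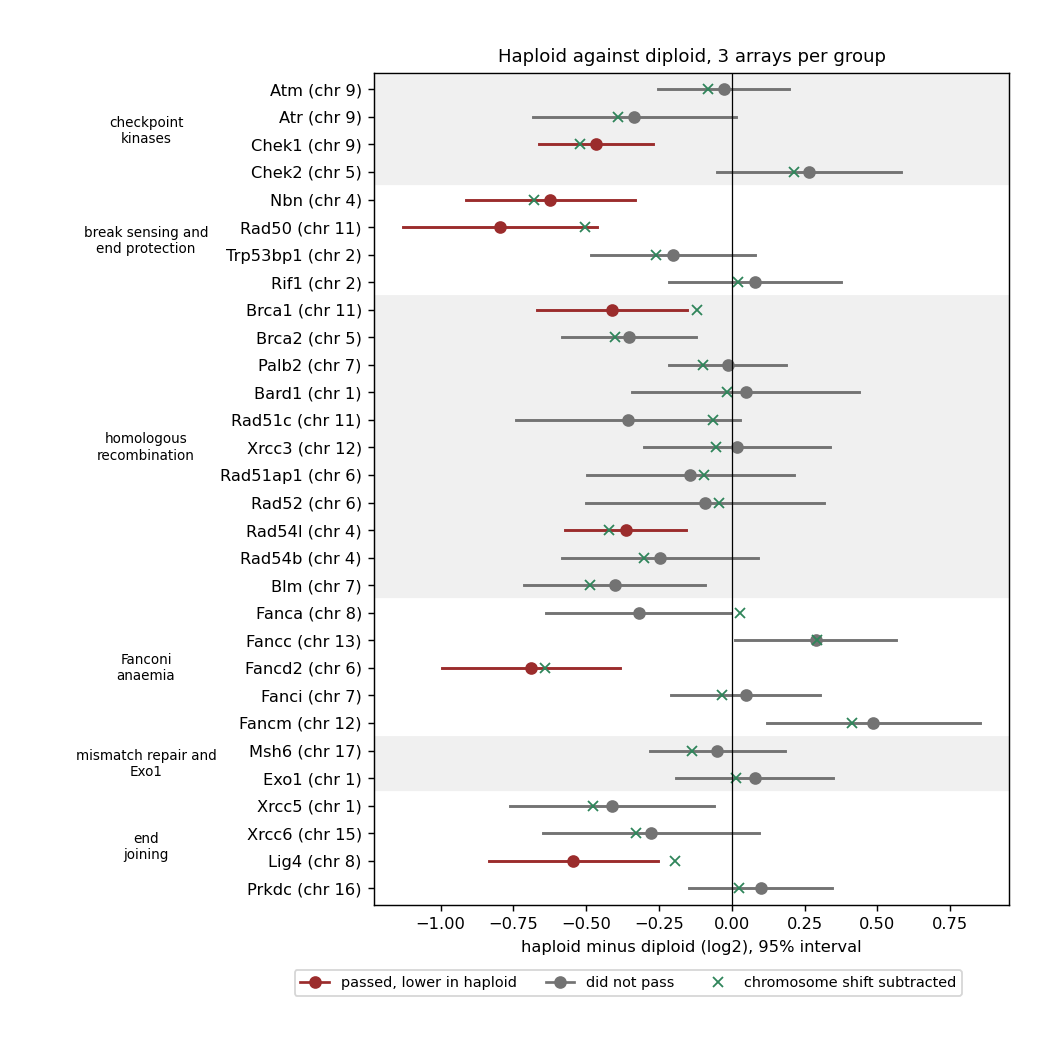
Haploid minus diploid difference of each gene on the log2 scale, with its 95% interval from limma (3 arrays per group, red where the gene passed as lower) and a cross for the value after the chromosome shift was subtracted. The crosses of Brca1 and Lig4, on chromosomes 11 and 8, lie nearer to 0 (-0.12 and -0.19), and that of Fanca at 0.03.

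The Fanconi genes did not move as one, with 1 of 5 lower and 0 higher. Fancd2, the protein that is marked with ubiquitin when a crosslink is met, read 9.72, 9.39 and 9.55 in the diploid arrays and 8.94, 8.68 and 8.97 in the haploid arrays. All haploid values were at least 0.42 below the lowest diploid value. The difference was -0.69 ± 0.13, 1.61-fold lower (limma adjusted p = 0.0162), and it was 0.0672 without diploid array 3. Diploid array 1 was the highest of the 6, on the chromosome that stood high in it; with chromosome shifts subtracted the difference was -0.64. The other 3 probe sets of Fancd2 differed by -0.13, 0.31 and -0.08 and did not pass, and their mean with the first was -0.15 (limma adjusted p = 0.477).

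Its partner Fanci differed by 0.05 ± 0.11 (limma adjusted p = 0.794). A dimmer Fanci probe set was higher by 0.77 ± 0.18, the only probe set of the 70 to pass as higher (limma adjusted p = 0.0338). Fancm, the helicase that recognises blocked forks, read 7.99, 8.20 and 8.36 against 8.85, 8.40 and 8.77. It was the only member whose haploid values all lay above the diploid ones, by 0.03 at the gap, and its difference of 0.49 ± 0.16 did not pass (limma adjusted p = 0.0796). Its dimmest probe set, at 5.29, was lower by 0.73 and passed, so the probe sets of Fancm disagree. Of the core complex that attaches ubiquitin to FANCD2, Fanca on chromosome 8 differed by -0.32 ± 0.14 and by 0.03 with the shift subtracted, and Fancc by 0.29 ± 0.12. Neither passed on all arrays (limma adjusted p = 0.158 and 0.146), and Fanca passed when averaged over its probe sets, at -0.45 (0.0414).

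Neither of the 2 members in mismatch repair passed. Msh6, which detects single mispaired bases, read 12.74, 12.90 and 12.83 against 12.70, 12.74 and 12.89. The difference was -0.05 ± 0.10, with a 95% interval from -0.28 to 0.18 (limma adjusted p = 0.771). Exo1, the nuclease that removes the strand in mismatch repair and resects breaks, differed by 0.08 ± 0.11 (limma adjusted p = 0.68), with a 95% interval from -0.19 to 0.35.

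End joining had 1 of 4 members lower. Lig4, the ligase that seals the ends, read 8.27, 8.14 and 8.23 in the diploid arrays and 7.55, 7.56 and 7.90 in the haploid arrays, with HTG1 nearest to the diploid values. The difference was -0.54 ± 0.12, 1.46-fold lower (limma adjusted p = 0.0292). Lig4 lies on chromosome 8, and with the shift of that chromosome subtracted the difference was -0.19 (limma adjusted p = 0.306). It passed without HTG1 but not without any other one array (0.0681 to 0.101). Xrcc5 (KU80), which with KU70 caps the ends, read 11.02, 11.12 and 11.12 against 10.93, 10.73 and 10.37. The groups did not overlap, but the haploid spread was wide (SD 0.28, against 0.06) and the difference of -0.41 ± 0.15 did not pass (limma adjusted p = 0.11). Xrcc6 (KU70) differed by -0.28 ± 0.16, and Prkdc, the kinase that the capped ends recruit, by 0.10 ± 0.10, with a 95% interval from -0.15 to 0.35. Prkdc haploid values were 9.16 to 9.20.

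The 5 members on chromosomes 8 and 11 (Rad50, Brca1, Rad51c, Fanca and Lig4) were all below 0 and 3 passed as lower, with a median of -0.41. Of the 25 on other chromosomes, 16 were below 0 and 4 passed (Chek1, Nbn, Rad54l and Fancd2), with a median of -0.09. Among the 1297 genes above the median level on chromosomes 8 and 11, 1016 were below 0 and 405 (31.2%) passed as lower. Of all 9096 genes above that level, those 1297 included, 4132 were below 0 and 838 passed as lower. With each chromosome's shift subtracted, 6 members passed as lower: these 4 again, with Brca2 (-0.40, limma adjusted p = 0.0346) and Blm (-0.49, 0.0499). Then 1358 of all 18193 genes passed as lower, and 668 of the 9096 above the median level. The median over the members was -0.11 under that setting, against -0.04 over all genes.

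The 30 genes had 70 probe sets with a single symbol, and 19 genes had more than 1. Fitted over all 34945 such probe sets, a check added after the data were seen, 9 of the 70 passed as lower and 1 as higher, against 6.38% and 7.04% of all. Of the brightest probe sets 6 of 30 passed as lower, and of the dimmer ones 3 of 40. Beyond the brightest, they were a second probe set of Chek1 (-0.36), one of Brca1 (-0.67) and the dimmest of Fancm. The brightest Brca1 probe set did not pass in this fit, over more tests. In 11 of the 19 genes, probe sets had opposite signs.

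**Figure D3:**
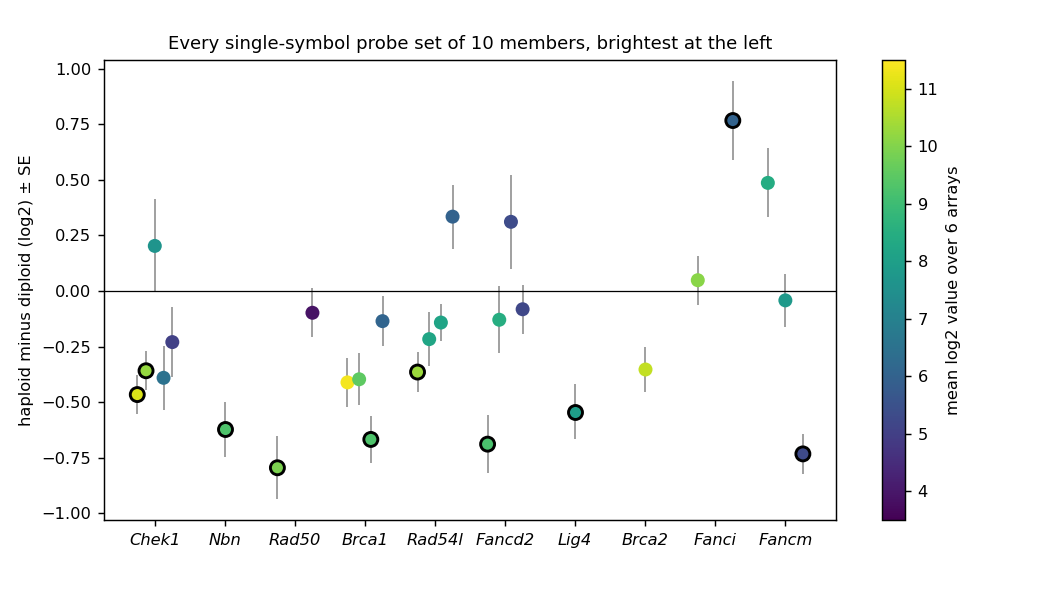
Haploid minus diploid difference (log2, ± SE, 3 arrays per group) for every single-symbol probe set of 10 genes, brightest at the left within each gene, coloured by the mean log2 value and ringed in black where it passed. Fancd2 has 1 ringed probe set at -0.69 and 3 others from -0.13 to 0.31, while the 4 of Brca1 all lie below 0.

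No member passed between the haploid lines. In limma with 3 groups, HTG1 against HAP1 and HAP2 had 0 of 30 members past the threshold, against 0.374% of all genes. The count was also 0 in the 8 other settings on all arrays and without any 1 of the other 5 arrays. With 1 array on one side, its spread was taken from the other groups. The largest differences were Bard1, which read 7.83 and 7.86 in HAP1 and HAP2 and 7.30 in HTG1 (-0.54, limma adjusted p = 0.313), Xrcc5 (-0.46, 0.421) and Rad50 (-0.43, 0.448). Lig4 was the furthest in the other direction, at 0.35 (limma adjusted p = 0.52). Of the 30 differences 17 were below 0, and the median was -0.04 against -0.01 over all genes.

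Other genes of the same pathways, 163 measured of 179 listed, were called in both directions: 17 rose and 17 fell, or 10.4% each way, against 7.92% and 6.96% of all genes. Of the 163, 150 lay above the median level, where 12.7% of genes passed as higher and 9.21% as lower. After another quantile normalization or with array medians aligned the split was 13 higher and 24 lower. The median over the 163 was -0.02. Without diploid array 3 the split was 5 higher and 3 lower, without diploid array 2 it was 7 and 4, without HAP2 9 and 8, and without diploid array 1 it was 14 and 11. The 6 on X ranged from 0.85 to 1.42 and 5 rose, where 40.7% of all genes on X and 72.1% of those above the median level passed as higher. Of 25 on chromosomes 8 and 11, 8 (32.0%) fell and 0 rose. On those chromosomes 20.7% of all genes passed as lower, and 31.2% of those above the median level. Of the 132 on other chromosomes 12 (9.09%) rose and 9 (6.82%) fell. With chromosome shifts subtracted 10 of the 163 passed as higher and 12 as lower.

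Among 27 further checkpoint genes 3 rose and 2 fell. Timeless, which keeps the helicase and polymerases together at forks and aids CHK1 activation, fell 1.93-fold (limma adjusted p = 0.0143), and Mdc1, which binds the phosphorylated histone at breaks, fell 1.47-fold. H2ax, that histone itself, rose 1.39-fold. With 1 array left out it was still higher, by 0.41 to 0.52 (log2), but passed in no such setting. Timeless did not pass without diploid array 2 or 3. Of 37 further recombination genes 1 rose and 3 fell. Slx1b, a nuclease that cuts branched DNA, rose 2.12-fold, while Smc5, of a complex that resolves recombination intermediates, fell 1.51-fold and Brip1, a helicase partner of BRCA1 on chromosome 11, fell 1.47-fold. Smc5 differed by -0.23 averaged over its probe sets and, with 1 array left out, passed only without HAP1. Brip1 did not pass without any 1 of the diploid arrays, and differed by -0.27 with the shift of its chromosome subtracted (limma adjusted p = 0.163).

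Crosslink repair genes outside the list had 2 of 18 higher and 3 lower. Ercc4 (XPF), the nuclease that cuts at the crosslink, rose 2.46-fold, Fancb, an X-linked core complex gene, rose 1.95-fold, and Rfwd3, a ubiquitin ligase of the pathway on chromosome 8, fell 1.84-fold. With shifts subtracted Fancb differed by 0.22 and did not pass, and Rfwd3 by -0.53 and did. Ercc4 did not pass without diploid array 2 or 3, nor Fancb without diploid array 3. None of 5 further mismatch repair genes passed in limma, nor did any at an unadjusted p of 0.05; Setd2, whose histone mark recruits MSH6, differed by -0.19 ± 0.15. Of 17 further genes listed under end joining, Shld2, a subunit of shieldin, rose 1.36-fold and Setmar fell 1.44-fold. Shld2 passed in no setting with 1 array left out and Setmar only without HAP1, and neither held in every other setting: Shld2 had 0.36 after quantile normalization and Setmar -0.48 with shifts subtracted.

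In base excision and single-strand break repair 1 of 20 rose and 4 fell, with X-linked Apex2 (1.88-fold higher), Tdp2, which frees trapped topoisomerase II (1.48-fold lower), and the gap-filling polymerase Polb on chromosome 8 (1.43-fold lower). Nucleotide excision repair had 5 of 20 higher and 1 lower: Cetn2 rose 2.68-fold and Cul4b 2.04-fold, both on X, and Uvssa, which acts at stalled RNA polymerase, rose 2.07-fold. Of 19 translesion, tolerance and direct reversal genes 4 rose and 3 fell. X-linked Ube2a, the ubiquitin-conjugating partner of RAD18, rose 2.43-fold, the translesion polymerase Poli fell 1.72-fold and Primpol, which restarts forks by repriming, fell 1.70-fold. With shifts subtracted Apex2 (0.16), Polb (-0.17), Cetn2 (0.67) and Cul4b (0.28, log2) no longer passed and Ube2a (0.53) did; averaged over its probe sets Polb differed by -0.13. Tdp2, Polb, Cetn2 and Poli did not pass without diploid array 2 or without diploid array 3. Of the 20 called genes named from these further lists, 8 (Mdc1, Slx1b, Rfwd3, Apex2, Uvssa, Cul4b, Ube2a and Primpol) passed with each array left out in turn.

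**Figure D4:**
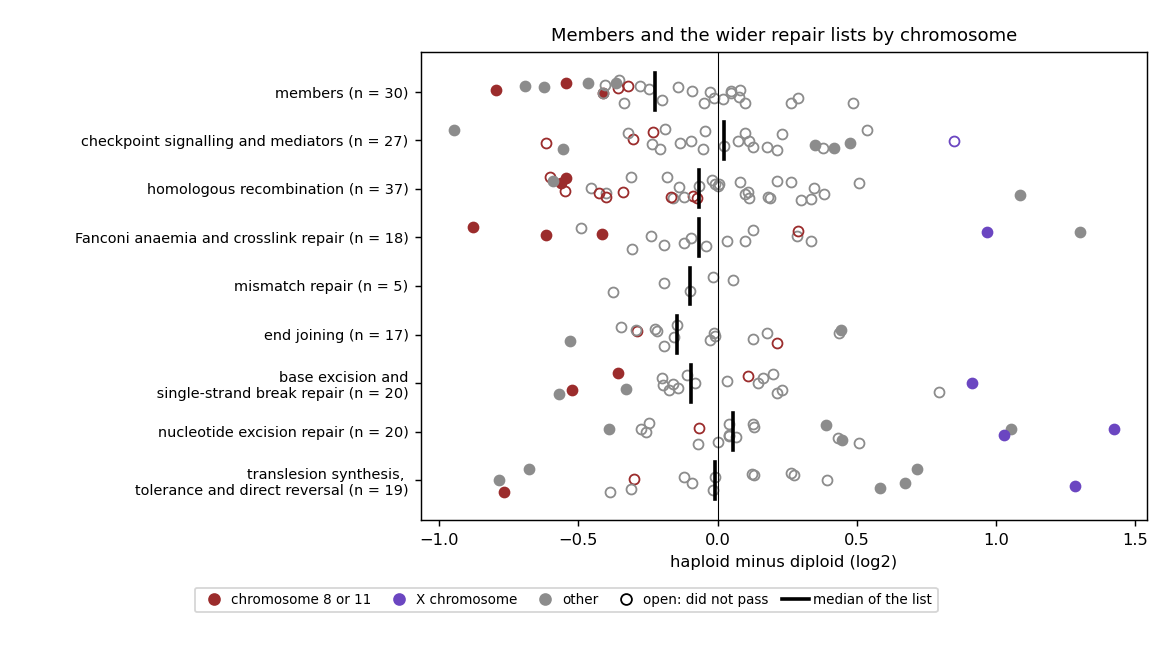
Haploid minus diploid difference (log2) of each gene in the list of 30 and in 8 further repair lists, filled where the gene passed and coloured by chromosome, with a bar at the list median. Filled points lie on both sides of 0 in the further lists, and those on chromosomes 8 and 11 all lie below 0.

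Genes read beside the members as signs of the cell cycle and of p53 activity moved differently from each other. Of 17 replication and cell cycle markers 3 (17.6%) rose and 1 (5.88%) fell, with a median of 0.02. Of all genes 7.92% passed as higher and 6.96% as lower, and 12.7% and 9.21% of those above the median level. The transcription factor E2f1 rose 1.59-fold and the nucleotide enzyme Tyms 2.15-fold, while Mcm5, of the replicative helicase, on chromosome 8, fell by 0.59 on the log2 scale. With the mean of their probe sets E2f1 (0.33) and Tyms (0.31, log2) did not pass, E2f1 did not pass after quantile normalization (0.60, limma adjusted p = 0.0515), and Mcm5 differed by -0.24 with shifts subtracted. Without diploid array 3 none of these 3 passed. Of 13 p53-responsive genes 6 (46.2%) rose and none fell, with a median of 0.46. Btg2 rose 2.46-fold, Plk2 1.85-fold and Sesn1 1.81-fold, although the mean of the Plk2 probe sets differed by -0.08. Btg2 and Sesn1 did not pass without diploid array 2 or without diploid array 3. The part of either list in the members' values was not tested.

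**Figure D5:**
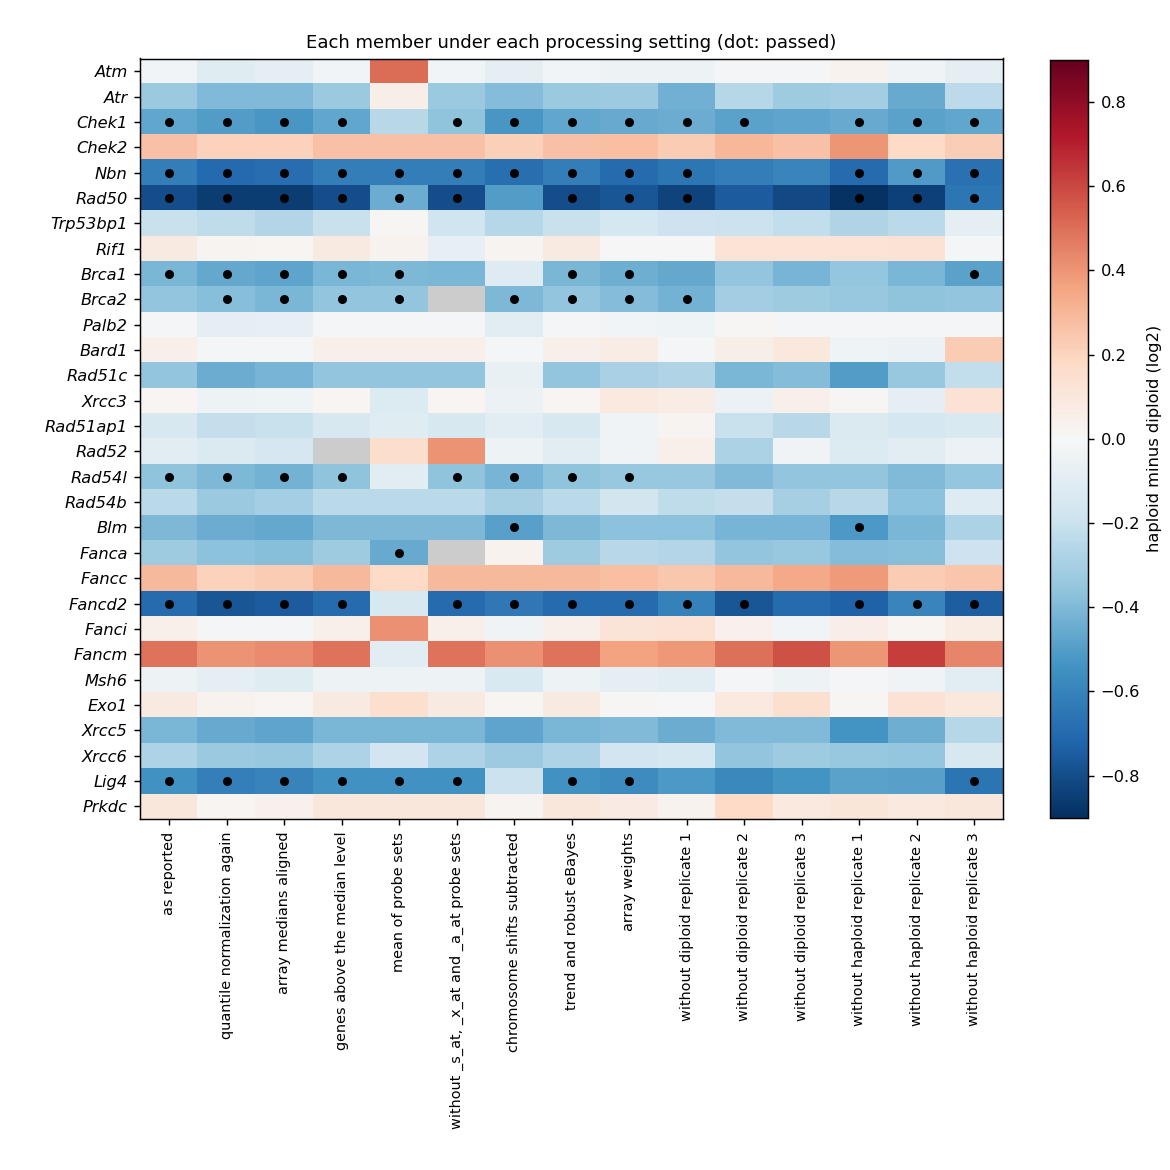
Haploid minus diploid difference (log2, colour) of the 30 genes as reported and under each other setting or with 1 array left out, with a dot where the gene passed and grey where no value could be had; haploid replicates 1, 2 and 3 are HAP1, HAP2 and HTG1. The column without diploid replicate 3 has no dot, and no dot in any column stands on a gene above 0.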

How the data were processed

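RNA of 3 diploid and 3 haploid ES cell samples was hybridised to Affymetrix mouse arrays, 1 array per sample. The authors deposited log2 values from RMA, per the submitters' processing notes; no software version is given in the sources, and raw signal was not used here. Of 45101 probe sets, 34945 carried a single symbol in the platform annotation. Of these, 34737 were matched by Entrez ID to a RefSeq gene (GRCm38.p6), which was used for chromosomes. The annotation's own symbols were kept as gene names. The probe set with the highest mean stood for each of 18193 genes. Tests used R 4.3.3 with the package limma 3.58.1 (functions lmFit, then eBayes with defaults, two-sided, Benjamini-Hochberg over all genes, threshold 0.05), tested on simulated data, where 77% of 200 changed genes at a log2 size of 1 and 96% at 2 were recovered and 6.49% of calls were false. No size below 1 was simulated. The largest difference of a member was -0.80 (log2, Rad50), so the share recovered at the sizes of the members is not known. The chromosome shift is the median over genes above the median level. "Without shared-name probe sets" leaves out names ending in _s_at, _x_at or _a_at. The number of arrays limits the precision. All members are named, and from each further list up to 3 called genes with the largest change, or the brightest where none was called. The members and lists were chosen with earlier results of these data known.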

Additional observations from a re-analysis of the deposited data

How the results depend on the processing

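The median difference over the members, -0.22, was -0.28 with array medians aligned, -0.10 with the mean of probe sets, -0.16 without shared-name probe sets, -0.11 with chromosome shifts subtracted, -0.16 with array weights, and -0.29 to -0.13 with 1 array left out. With 1 array left out, calls ranged from 970 to 2428 over all genes, 0 to 6 for members lower, 5 to 14 for further genes higher and 3 to 13 for further genes lower. Further genes higher numbered 10 with shifts subtracted. No member passed as higher in any setting run. Signs turned, always without passing, with the mean of probe sets for Atm (0.50), Atr (0.0522), Trp53bp1 (0.0115), Xrcc3 (-0.12), Rad52 (0.16), Fancm (-0.10) and Plk2 (-0.0789), and without shared-name probe sets for Rif1 (-0.0706) and Rad52 (0.41). They turned after quantile normalization for Bard1 (-0.0085), Xrcc3 (-0.0476) and Fanci (-0.0086), with aligned medians for Bard1 (-0.0126), Xrcc3 (-0.0412) and Fanci (-0.0116), and with shifts subtracted for Bard1 (-0.0162), Xrcc3 (-0.0544), Fanca (0.0297) and Fanci (-0.0351). With 1 array left out, values crossed 0 for Atm (-0.0823 to 0.0301), Rif1 (-0.0149 to 0.13), Palb2 (-0.042 to 0.0132), Bard1 (-0.0499 to 0.23), Xrcc3 (-0.0842 to 0.13), Rad51ap1 (-0.25 to 0.0228), Rad52 (-0.29 to 0.0441) and Fanci (-0.0262 to 0.13). The cause was not tested. The comparison of HTG1 could not be fitted without HTG1. No paired analysis was possible because the diploid samples carry only replicate numbers and the haploid samples line names.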
